A study of Homo sapiens with 156 samples.

Results

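STAB1 and 8 further receptors of macrophages (CD163, MSR1, MARCO, CD36, SCARB1, MRC1, CLEC7A and the lysosomal protein CD68) were followed through 3 acute myeloid leukaemia cell lines treated with inhibitors of DNA methylation. These are 9 of the 59939 genes in the deposited expression tables. STAB1 was chosen by its measured level, which stood high after 4 days of 400 nM decitabine in all 3 lines, so the values under that treatment are given as a description and carry no test. The other 8 genes were added as scavenger receptors, pattern-recognition receptors and a macrophage marker related to it by function. The lines were MV411, THP1 and NOMO1, which all carry a rearranged KMT2A gene. In every line the treatments were GSK3685032 (GSK032 below) and decitabine (DAC), each over a time course of 1, 2, 4 and 6 days with 400 nM and over a dose series of 3.2, 16, 80, 2000 and 10000 nM that ended on day 4. Day 2 and day 4 were sampled for GSK3484862 (GSK862) with a single dose of 1000 nM and for GSK3510477 (GSK477) with one of 10000 nM. DMSO, the solvent, was sampled on all 4 days. Each of the 26 groups in a line had 2 libraries of bulk RNA, 156 libraries in all. Whether the 2 libraries came from separate cultures is not recorded, so p-values measure the spread between libraries, which may be technical.

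Scavenger receptors are surface proteins with which macrophages bind and take up modified lipoproteins, debris, microbes and worn proteins. They belong to unrelated protein families and are sorted into classes by their structure. DAC is a cytidine analogue that is built into DNA and traps DNA methyltransferases, and the series is named for inhibitors of DNMT1, the enzyme that copies methylation to the new strand at replication. DNA methylation of a promoter goes with silence of many genes in blood cells.

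Values are FPKM, fragments scaled to the length of the transcript and to the depth of the library, so levels of different genes can be set side by side within a table. Fold changes are differences of mean log2(FPKM + 0.5), which understate the change of genes with low FPKM, and are given ± their standard error. A gene was called changed when limma's moderated test gave a Benjamini-Hochberg adjusted p under 0.05 over all genes tested and the log2 fold change was at least 1. The 3 tables were normalized apart, so levels in different lines were not tested against each other. The size of the FPKM steps put the libraries of MV411 at about 38300000 to 84200000 fragments, those of THP1 at 33400000 to 88900000 fragments and those of NOMO1 at 48900000 to 128800000 fragments. The lines carried the general blood cell marker PTPRC at 31.05 to 128.5 FPKM in DMSO libraries, while the T cell gene CD3E, the B cell gene MS4A1, the globin HBB and the collagen COL3A1 lay at or near 0. In bulk RNA, fewer cells carrying a transcript and less of it per cell cannot be told apart.

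In DMSO the 9 genes fell into abundant and scarce ones. CD68, CD36 and SCARB1 were abundant in all lines, with medians over the 8 DMSO libraries of 21.6, 16.1 and 35.3 FPKM in MV411, of 99.2, 25.6 and 62.9 FPKM in THP1 and of 168, 20.6 and 26.1 FPKM in NOMO1. CLEC7A had a median of 4.49 FPKM in NOMO1, 0.636 FPKM in THP1 and 0.311 FPKM in MV411. CD163, MSR1 and MARCO had medians between 0.682 and 1.31 FPKM in all lines. STAB1 was scarcer, at 0.531 FPKM in MV411, 0.213 FPKM in THP1 and 0.121 FPKM in NOMO1. MRC1 stood at 0.0437 FPKM or less by median, where 3 fragments in a library of median depth would give about 0.009 FPKM. A gene was tested in a line if 2 or more of its libraries reached 1 FPKM, and this filter on low values kept 7 of the 9 genes in MV411 (not MRC1 and CLEC7A), 8 in THP1 (not MRC1) and all 9 in NOMO1.

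STAB1 encodes stabilin-1, a large multidomain scavenger receptor of sinusoidal endothelium and of tissue macrophages that takes up SPARC, modified lipoproteins and dying cells. It lies on chr3:52495338-52524495 (+ strand, hg38, GENCODE 29), and its last 111 bases overlap NT5DC2 on the opposite strand. Whether fragments were assigned by strand is not given in the sources used here, so the values of this and of the other overlapping genes named are uncertain where they share sequence. As the treatments act on CpG methylation, the 250 bases before the RefSeq start sites are shown for the 4 members with a single start in the table used (GRCh38.p14), 5′ to 3′ on the gene's strand with each CG in capitals. They lie at chr3:52495088-52495337 (+ strand) for STAB1, chr2:118941944-118942193 (+ strand) for MARCO, chr12:7503778-7504027 (- strand) for CD163 and chr17:7579388-7579637 (+ strand) for CD68.
STAB1: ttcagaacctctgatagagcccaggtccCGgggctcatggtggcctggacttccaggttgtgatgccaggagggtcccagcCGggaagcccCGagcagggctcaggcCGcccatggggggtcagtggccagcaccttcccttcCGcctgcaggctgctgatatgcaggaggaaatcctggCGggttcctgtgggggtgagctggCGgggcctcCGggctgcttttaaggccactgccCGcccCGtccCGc
MARCO: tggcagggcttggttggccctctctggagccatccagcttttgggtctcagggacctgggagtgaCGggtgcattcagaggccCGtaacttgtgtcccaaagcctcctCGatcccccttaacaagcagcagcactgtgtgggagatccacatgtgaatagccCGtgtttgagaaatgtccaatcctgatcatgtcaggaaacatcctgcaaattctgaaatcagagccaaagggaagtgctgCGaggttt
CD163: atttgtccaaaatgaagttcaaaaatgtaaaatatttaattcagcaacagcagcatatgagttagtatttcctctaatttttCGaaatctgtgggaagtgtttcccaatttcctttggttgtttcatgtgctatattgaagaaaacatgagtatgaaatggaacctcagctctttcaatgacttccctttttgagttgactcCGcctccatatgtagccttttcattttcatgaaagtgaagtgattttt
CD68: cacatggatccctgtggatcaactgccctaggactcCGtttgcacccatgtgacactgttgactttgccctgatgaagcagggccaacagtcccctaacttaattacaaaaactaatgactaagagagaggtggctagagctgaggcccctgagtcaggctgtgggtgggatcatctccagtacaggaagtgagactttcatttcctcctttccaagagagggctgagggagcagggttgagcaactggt

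The STAB1 window held 11 CG, the MARCO window 5, the CD163 window 2 and the CD68 window 1. Over the 35116 windows of the table the median was 11. At least as many CG as in STAB1 were found in 50.3% of windows, and at least as many as in MARCO in 65.7%, in CD163 in 85.3% and in CD68 in 93.9%. CD36 had 6 start sites in the table, with 1 or 2 CG each. The methylation of these windows was not measured in the files used here.

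STAB1 rose with both compounds at 400 nM and stood highest in MV411. At day 6 it stood at 90.3 and 104 FPKM in MV411 with GSK032, at 67.9 and 75.1 FPKM with DAC and at 0.672 and 0.556 FPKM in DMSO. In NOMO1 the day 6 values were 13.6 and 15.9 FPKM with GSK032, 24.8 and 32.8 FPKM with DAC and 0.113 and 0.209 FPKM in DMSO. In THP1 they were 6.21 and 8.31 FPKM with GSK032, 9.73 and 12.6 FPKM with DAC and 0.246 and 0.0646 FPKM in DMSO. Every treated library was far above every DMSO library of its line. STAB1 reached 1 FPKM in no DMSO library (highest 0.691, 0.374 and 0.282 FPKM in MV411, THP1 and NOMO1). The filter on low values thus kept it through treated libraries alone. The adjusted p and calls given for STAB1, here and below, are therefore a description and not a test. This holds against DMSO and equally between compounds, doses and days. The day 6 log2 fold changes with GSK032 were 6.45 ± 0.29 in MV411 (limma adjusted p = 3.42e-17), 3.57 ± 0.24 in THP1 (adjusted p = 1.39e-12) and 4.53 ± 0.22 in NOMO1 (adjusted p = 9.36e-16). With DAC they were 6.01 ± 0.29, 4.16 ± 0.24 and 5.46 ± 0.22 in the same order of lines, with adjusted p of 3.57e-16, 1.39e-14 and 1.39e-18. The share of all genes called higher at day 6 was 8.22%, 3.29% and 4.25% with GSK032 and 7.03%, 7.26% and 14.9% with DAC, in MV411, THP1 and NOMO1.

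The transcript appeared at different days in the 3 lines, which were not tested against each other. In MV411, STAB1 with GSK032 was 1.4 and 4.08 FPKM at day 1, 17.9 and 16.2 FPKM at day 2 and 43.0 and 30.0 FPKM at day 4, and with DAC it was 2.25 and 3.5 FPKM at day 1 and 11.9 and 16.8 FPKM at day 2. All of these lay above the DMSO libraries, which never passed 0.691 FPKM in this line. The day 1 log2 fold changes were 1.68 ± 0.29 with GSK032 (limma adjusted p = 0.0021) and 1.85 ± 0.29 with DAC (adjusted p = 2.51e-04). The share of all tested MV411 genes called higher at day 1 was 0.136% with GSK032 and 0.404% with DAC. The GSK032 call at day 1 was lost without DMSO library 1 or without GSK032 library 2, and the fold change without the treated library was 1.04. The day 2 fold changes were 3.99 with GSK032 and 3.73 with DAC, where 1.73% and 2.46% of all genes were called higher.

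In NOMO1, GSK032 gave 0.184 and 0.136 FPKM at day 1, 0.583 and 1.15 FPKM at day 2 and 3.58 and 5.64 FPKM at day 4, while DAC gave 0.618 and 0.901 FPKM at day 1 and 5.39 and 7.01 FPKM at day 2. DMSO held 0.159 and 0.282 FPKM at day 1 and 0.0941 and 0.104 FPKM at day 2, so both DAC groups and the day 2 GSK032 group lay above it. The day 2 log2 fold change was 1.158 with GSK032 (limma adjusted p = 0.0022), or 0.85 without GSK032 library 2, and 3.47 with DAC (adjusted p = 6.59e-13), against shares of 0.352% and 3.55% of all genes. In THP1 the transcript was still low at day 2. GSK032 gave 0.11 and 0.176 FPKM, 0.129 and 0.54 FPKM and 1.72 and 2.06 FPKM at days 1, 2 and 4, and DAC gave 0.237 and 0.09 FPKM at day 1 and 0.945 and 1.34 FPKM at day 2. DMSO held 0.27 and 0.374 FPKM at day 1 and 0.15 and 0.312 FPKM at day 2, so both DAC libraries of day 2 lay above DMSO, the GSK032 libraries of day 2 spanned it, and the GSK032 and DAC libraries of day 1 lay below it. The day 2 fold change was 0.15 with GSK032 (adjusted p = 0.86) and 1.17 with DAC (adjusted p = 0.001), or 0.99 without DAC library 2, where 0.336% and 1.15% of all genes were called higher. The growth of the effect was taken as the day 6 effect less the day 1 effect. It was 4.77, 3.92 and 4.65 with GSK032, and 4.17, 4.47 and 4.66 with DAC, in MV411, THP1 and NOMO1, all called. The background for these calls was 7.4%, 2.73% and 3.51% with GSK032 and 5.35%, 6.04% and 12.5% with DAC.

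**Figure D1:**
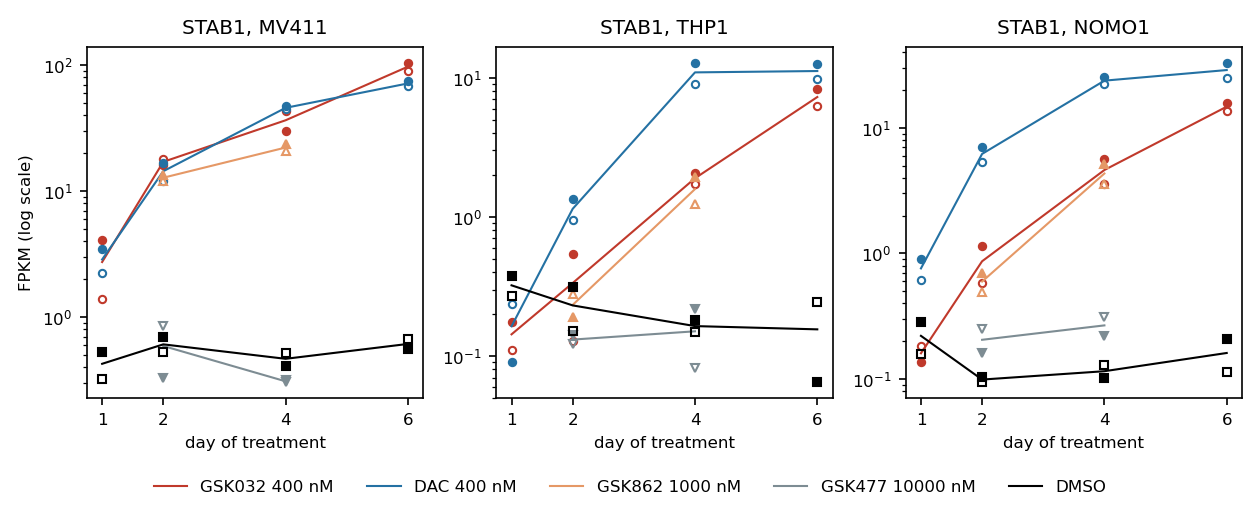
STAB1 in FPKM (log scale) against day of treatment in the 3 lines, for GSK032 at 400 nM (red), DAC at 400 nM (blue), GSK862 at 1000 nM (orange), GSK477 at 10000 nM (grey) and DMSO (black). Open and filled symbols are libraries 1 and 2 (for GSK862 and GSK477 at day 4 in MV411, whose columns share 1 number, both libraries in file order) and lines join the group means. In MV411 GSK032 and DAC run together and reach 90.3 and 104 FPKM at day 6 with GSK032, while in THP1 and NOMO1 the DAC points lie above the GSK032 points from day 2 on.

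A dose of 80 nM at day 4 separated the compounds in 2 of the 3 lines. With 80 nM GSK032, STAB1 was 18.0 and 13.6 FPKM in MV411, 0.124 and 0.208 FPKM in THP1 and 0.12 and 0.165 FPKM in NOMO1. With 80 nM DAC it was 11.0 and 15.8 FPKM in MV411, 1.96 and 2.01 FPKM in THP1 and 8.1 and 11.9 FPKM in NOMO1. The day 4 DMSO libraries held 0.523 and 0.414 FPKM in MV411, 0.147 and 0.18 FPKM in THP1 and 0.129 and 0.102 FPKM in NOMO1. At this dose both compounds lifted the transcript in MV411, where the libraries of the 2 compounds overlapped, and DAC did in THP1 and NOMO1, where they did not. The log2 fold changes against DMSO were 4.06, 0.0 and 0.06 with GSK032 and 3.82, 1.9 and 4.07 with DAC, where 2.57%, 0.0904% and 0.0385% of genes were called higher with GSK032 and 1.74%, 1.74% and 6.51% with DAC. GSK032 minus DAC at 80 nM was 0.23 ± 0.29 in MV411 (limma adjusted p = 0.77, 95% interval -0.35 to 0.82), -1.9 ± 0.24 in THP1 (adjusted p = 1.75e-06) and -4.01 ± 0.22 in NOMO1 (adjusted p = 1.24e-14). The share of all genes called lower with GSK032 than with DAC at 80 nM was 0.1% in MV411, 0.96% in THP1 and 5.42% in NOMO1. As the filter kept STAB1 through treated libraries alone, these differences between compounds are a description and not a test.

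The lowest dose at which STAB1 was called against DMSO was 16 nM, with DAC in NOMO1, where the libraries held 2.13 and 1.95 FPKM (log2 fold change 2.05 ± 0.22, limma adjusted p = 1.42e-07, against 1.04% of all genes called higher). GSK032 at 16 nM gave 0.0746 and 0.0993 FPKM in NOMO1, no higher than DMSO. At 3.2 nM the log2 fold changes were 0.05, -0.13 and -0.06 with GSK032 and -0.26, -0.09 and 0.59 with DAC in MV411, THP1 and NOMO1. All day 4 comparisons with DMSO share the same 2 DMSO libraries in each line.

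Between 2000 and 10000 nM the compounds changed order in THP1 and NOMO1. At 2000 nM STAB1 was 51.2 and 39.8 FPKM with GSK032 and 46.1 and 37.1 FPKM with DAC in MV411, 5.69 and 7.16 FPKM and 9.99 and 13.2 FPKM in THP1, and 13.6 and 16.9 FPKM and 17.4 and 17.6 FPKM in NOMO1. At 10000 nM it was 50.8 and 55.2 FPKM with GSK032 and 29.4 and 23.4 FPKM with DAC in MV411, 10.4 and 12.6 FPKM and 5.5 and 7.97 FPKM in THP1, and 25.9 and 34.3 FPKM and 10.8 and 14.4 FPKM in NOMO1. At 2000 nM the DAC libraries were above the GSK032 libraries in THP1 and NOMO1 and overlapped them in MV411, while at 10000 nM the GSK032 libraries were above the DAC libraries in all 3 lines. The difference there was 1.23 ± 0.22 in NOMO1 (limma adjusted p = 2.55e-05), 1.0 ± 0.29 in MV411 (adjusted p = 0.0061) and 0.74 ± 0.24 in THP1 (adjusted p = 0.012, under the size needed for a call). The background of genes higher with GSK032 was 6.07% in NOMO1, 5.68% in MV411 and 4.07% in THP1. The MV411 call was lost without GSK032 library 2 (0.94) or DAC library 2 (0.84), with a pseudocount of 1 and with median-of-ratios scaling (0.84). From 2000 to 10000 nM the log2 change was 0.23, 0.79 and 0.95 with GSK032 and -0.65, -0.75 and -0.48 with DAC in MV411, THP1 and NOMO1, each under the size needed for a call.

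Over the dose series, a straight line through the 5 doses other than 400 nM gave a log2 rise across the whole series of 6.61 ± 0.24, 4.79 ± 0.2 and 6.49 ± 0.19 with GSK032 and 5.94 ± 0.24, 4.37 ± 0.2 and 3.88 ± 0.19 with DAC in MV411, THP1 and NOMO1. All 6 were called, where 11.3%, 5.89% and 9.69% of genes rose along the GSK032 series and 14.3%, 12.4% and 17.6% along the DAC series. At 400 nM and day 4, the treatment by which the gene was picked, DAC libraries held 44.6 and 47.0 FPKM in MV411, 9.08 and 12.8 FPKM in THP1 and 22.3 and 25.2 FPKM in NOMO1, with 6.86%, 6.23% and 13.2% of all genes called higher. GSK032 at that dose and day gave log2 fold changes against DMSO of 5.24, 1.85 and 3.03, with 6.55%, 1.94% and 2.55% of genes called higher.

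**Figure D2:**
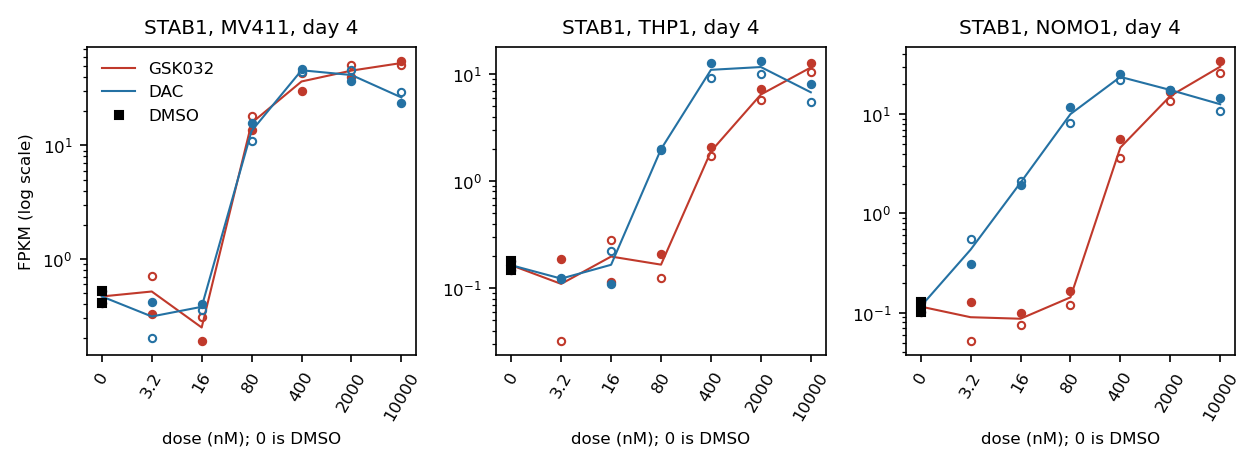
STAB1 in FPKM (log scale) at day 4 against dose in nM, with DMSO at 0, in the 3 lines, for GSK032 (red), DAC (blue) and DMSO (black squares). Open and filled circles are libraries 1 and 2 and lines join the group means. The DAC curve lies to the left of the GSK032 curve in THP1 and NOMO1, and at 10000 nM the GSK032 libraries are above the DAC libraries in every line.

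At 400 nM over time, GSK032 minus DAC at day 6 was 0.44 ± 0.29 in MV411 (95% interval -0.15 to 1.02), -0.59 ± 0.24 in THP1 (interval -1.07 to -0.11) and -0.94 ± 0.22 in NOMO1 (interval -1.38 to -0.49), and none was called. The NOMO1 difference fell short of the size needed (adjusted p = 6.31e-04), and it was called at -1.15 with libraries scaled to equal sums and at -1.11 with median-of-ratios scaling. Leaving out 1 library moved it both ways. It was -1.13 without DAC library 1, -1.04 without GSK032 library 2, -0.83 without GSK032 library 1 and -0.74 without DAC library 2. At day 2 GSK032 minus DAC was -2.31 in NOMO1 (limma adjusted p = 6.08e-09) and 0.26 in MV411 (interval -0.33 to 0.84), with 2.15% of NOMO1 genes lower with GSK032. The day 2 difference in THP1 was -1.01 (adjusted p = 0.019), beside 0.194% of genes. That call was lost without GSK032 library 1 (-0.65) or DAC library 2 (-0.84). It was also lost with a pseudocount of 1 (-0.69), with equal sums (-0.91) and with median-of-ratios scaling (-0.98).

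GSK862 at 1000 nM also raised STAB1. The 2 libraries at day 4 were 20.8 and 23.5 FPKM in MV411, 1.23 and 1.94 FPKM in THP1 and 3.55 and 5.11 FPKM in NOMO1, all above DMSO. The log2 fold changes were 4.55 ± 0.29, 1.63 ± 0.24 and 2.95 ± 0.22 (limma adjusted p = 4.13e-13, 1.48e-05 and 2.72e-11), where 4.2%, 1.17% and 2.41% of genes were called higher. No other compound was given at 1000 nM, so GSK862 has no matched dose. GSK477 at 10000 nM left STAB1 at 0.316 and 0.305 FPKM in MV411, 0.082 and 0.219 FPKM in THP1 and 0.314 and 0.22 FPKM in NOMO1 at day 4. Its log2 fold changes were -0.25 ± 0.29 (95% interval -0.84 to 0.33), -0.04 ± 0.24 (interval -0.52 to 0.45) and 0.32 ± 0.22 (interval -0.13 to 0.76). At the shared dose of 10000 nM and day 4, GSK032 minus GSK477 was 6.04 ± 0.29, 4.21 ± 0.24 and 5.31 ± 0.22, and DAC minus GSK477 was 5.04 ± 0.29, 3.46 ± 0.24 and 4.08 ± 0.22, all called. The background of these calls was 12.3%, 5.24% and 8.26% with GSK032 and 12.3%, 11.3% and 15.1% with DAC.

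The authors' deposited table of log2 fold changes gave STAB1 in MV411 at day 6 as 7.30 with GSK032 and 6.86 with DAC, and in NOMO1 as 6.54 and 7.50. These are larger than the values with a pseudocount of 0.5. In MV411 at day 1 the authors' deposited table had 2.68 with GSK032 and 0.666 with DAC, where the libraries here gave 1.68 and 1.85. Its day 1 DAC values also differed for other members. They were -2.37 against -0.098 here for CD163, 0.057 against 0.714 for CD68 and 0.165 against -0.466 for SCARB1. CD36 had 0.069 against 0.395 and MARCO 0.577 against 0.119, while MSR1 was close (-0.024 against 0.077). The reason is not known.

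CD36, a class B receptor for fatty acids and oxidized lipoproteins, was the other member that rose in all 3 lines with both compounds. It lies on chr7:80369575-80679277 (+ strand) and overlaps GNAT3 and other genes on the opposite strand. At day 6 CD36 was 50.9 and 70.2 FPKM with GSK032, 39.1 and 41.3 FPKM with DAC and 11.1 and 13.8 FPKM in DMSO in MV411. It was 87.4 and 89.5 FPKM, 80.5 and 79.3 FPKM and 34.8 and 28.3 FPKM in THP1, and 62.7 and 56.4 FPKM, 111 and 125 FPKM and 18.7 and 18.3 FPKM in NOMO1, in the same order. No treated library overlapped DMSO. The log2 fold changes were 2.23 ± 0.13, 1.48 ± 0.1 and 1.66 ± 0.16 with GSK032 and 1.66 ± 0.13, 1.33 ± 0.1 and 2.63 ± 0.16 with DAC in MV411, THP1 and NOMO1. Their adjusted p from limma ran from 1.05e-14 in MV411 with GSK032 to 1.91e-09 in NOMO1 with GSK032. GSK032 minus DAC in NOMO1 was -1.6 ± 0.16 at 2000 nM and -1.38 ± 0.16 at 10000 nM, both called, where 9.75% and 9.83% of genes were lower with GSK032. In MV411 the CD36 call with 10000 nM DAC (1.0, libraries 34.2 and 28.8 FPKM against 16.7 and 14.3 FPKM in DMSO) fell to 0.53 when libraries were scaled to equal sums, and was also lost without DAC library 1 (0.88) or DMSO library 2 (0.89), beside 10.7% of genes called higher.

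SCARB1, the other class B member and the receptor for high-density lipoprotein, was not called in any comparison with DMSO. It lies on chr12:124776856-124882668 (- strand). At day 6 it was 33.3 and 34.4 FPKM with GSK032, 23.5 and 24.3 FPKM with DAC and 25.7 and 31.5 FPKM in DMSO in MV411. In the other lines every treated library was below the DMSO libraries, with 49.3 and 55.1 FPKM, 34.5 and 41.0 FPKM and 60.9 and 68.3 FPKM in THP1, and 15.7 and 20.6 FPKM, 27.4 and 23.8 FPKM and 29.2 and 29.3 FPKM in NOMO1. The day 6 log2 fold changes were 0.25, -0.3 and -0.68 with GSK032 and -0.25, -0.77 and -0.19 with DAC in MV411, THP1 and NOMO1. The NOMO1 DAC value was 0.12 when libraries were scaled to equal sums and 0.03 with median-of-ratios scaling, so its sign rests on the scaling.

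CD68, a lysosomal glycoprotein used to mark macrophages, was called in MV411 and in neither of the other lines at day 6, and the difference between lines was not tested. It lies on chr17:7579467-7582113 (+ strand) and shares 2558 bases with the transcript AC016876.2 of the same strand, so its fragments may be shared with it. In MV411 at day 6 CD68 was 143 and 164 FPKM with GSK032, 127 and 124 FPKM with DAC and 22.7 and 26.6 FPKM in DMSO. All treated libraries were above all DMSO libraries, with log2 fold changes of 2.62 ± 0.27 (limma adjusted p = 2.84e-09) and 2.33 ± 0.27 (adjusted p = 3.59e-08). In THP1 it was 136 and 142 FPKM, 122 and 122 FPKM and 101 and 97.4 FPKM, and in NOMO1 156 and 169 FPKM, 169.7 and 155 FPKM and 197 and 146 FPKM, in the same order of groups. Those fold changes were 0.48 and 0.29 in THP1 and -0.06 and -0.06 in NOMO1, none called. In DMSO, MV411 held less CD68 than the other lines, and with treatment its level came into their range, as far as tables normalized apart can be set side by side. Along the dose series in MV411, CD68 rose by 2.49 ± 0.23 with GSK032 and 2.25 ± 0.23 with DAC. The summed level of 7 myeloid and monocytic markers in MV411 at day 6 was 8137 to 9440 FPKM with GSK032, 2732 to 2807 FPKM with DAC and 552 to 606 FPKM in DMSO. LYZ, which encodes lysozyme, made up most of that sum, at 7740 to 9119 FPKM with GSK032, 2503 to 2573 FPKM with DAC and 366 to 409 FPKM in DMSO, and the other 6 markers summed to 321 to 397 FPKM, 229 to 234 FPKM and 186 to 197 FPKM, with CD14 under 1 FPKM throughout. Their part in the CD68 result was not tested.

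**Figure D3:**
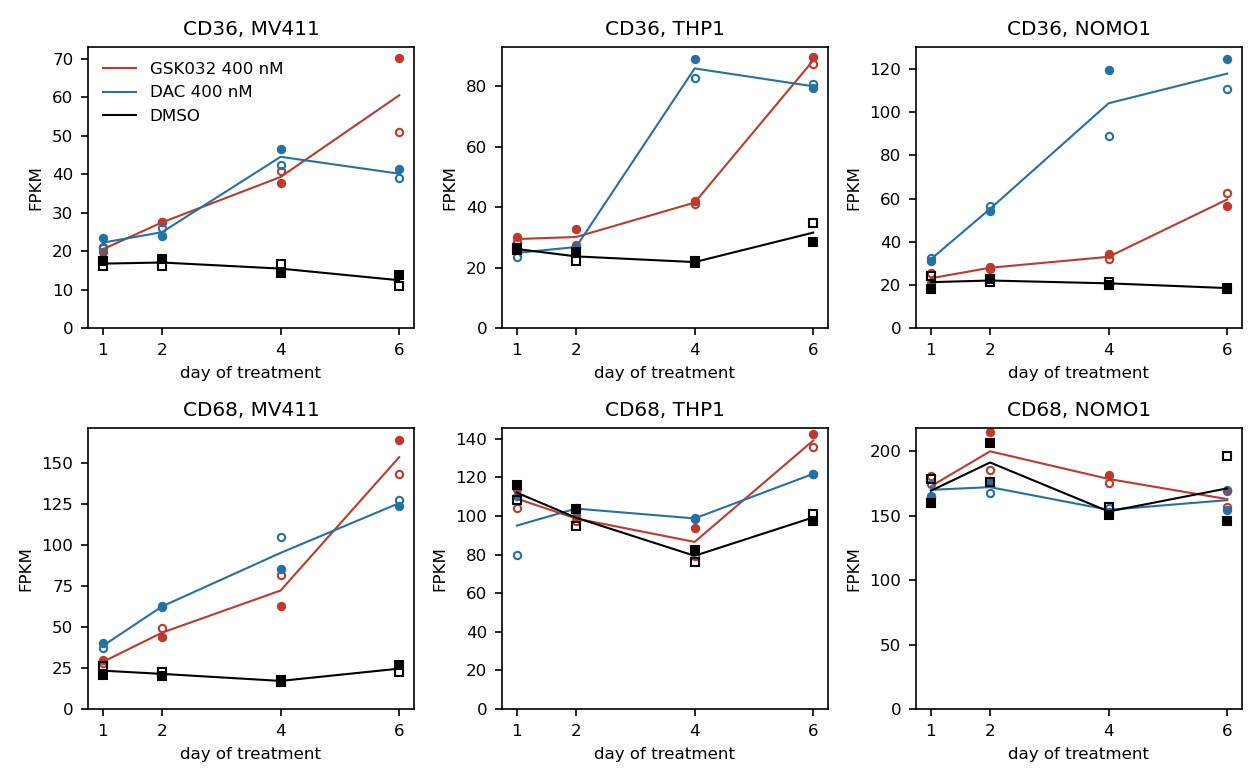
CD36 (top row) and CD68 (bottom row) in FPKM against day of treatment in the 3 lines, for GSK032 at 400 nM (red), DAC at 400 nM (blue) and DMSO (black). Open and filled symbols are libraries 1 and 2 and lines join the group means. CD36 stands apart from DMSO at day 6 in every line, and CD68 does so most in MV411, where the day 6 GSK032 libraries are at 143 and 164 FPKM.

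The cysteine-rich and class A receptors moved mainly in NOMO1 with DAC. CD163, the receptor for haemoglobin bound to haptoglobin (chr12:7470813-7503893, - strand, sharing 9085 bases with CD163L1 on its own strand), was 2.04 and 1.7 FPKM with GSK032, 5.5 and 5.97 FPKM with DAC and 1.0 and 1.63 FPKM in DMSO at day 6 in NOMO1. MSR1, which binds modified lipoproteins, was 4.17 and 3.68 FPKM, 7.77 and 8.43 FPKM and 1.81 and 2.2 FPKM. MARCO, the collagenous class A receptor of alveolar macrophages (chr2:118942166-118994660, + strand), was 2.12 and 3.04 FPKM, 8.27 and 10.7 FPKM and 1.25 and 1.67 FPKM. For all 3 genes both DAC libraries were above both GSK032 libraries and both DMSO libraries, and the GSK032 libraries were above DMSO as well. The DAC log2 fold changes were 1.8 ± 0.2 for CD163, 1.78 ± 0.18 for MSR1 and 2.35 ± 0.25 for MARCO (limma adjusted p = 7.49e-09, 4.51e-10 and 2.64e-09). With GSK032 they were 0.4 ± 0.2, 0.82 ± 0.18 and 0.64 ± 0.25, none called.

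In the other 2 lines, each call given here was lost when 1 library was left out. In THP1 CD163 was 2.7 and 3.55 FPKM with GSK032, 2.03 and 2.35 FPKM with DAC and 1.22 and 1.36 FPKM in DMSO at day 6. The GSK032 fold change of 1.01 ± 0.28 was called (limma adjusted p = 0.0059) and lost the call without DMSO library 1 (0.95) or GSK032 library 2 (0.84). In MV411 MARCO was 1.21 and 1.68 FPKM with GSK032, 0.387 and 0.436 FPKM with DAC and 0.446 and 0.394 FPKM in DMSO. Its GSK032 fold change of 1.07 ± 0.18 was 0.89 without GSK032 library 2, and its difference from DAC of 1.08 was 0.91 without that library, which ended both calls. MARCO did not pass 0.884 FPKM in any DMSO library of MV411 and was kept by the filter through treated libraries alone. Both calls are therefore a description and not a test. The share of MV411 genes called higher with GSK032 than with DAC at day 6 was 1.34%. CD163 in MV411 at 10000 nM GSK032 was 7.21 and 6.26 FPKM against 1.75 and 3.67 FPKM in DMSO, and the call (1.24 ± 0.46) was lost without DMSO library 1 (0.79) or without either GSK032 library, beside 10% of genes called higher. MSR1 in MV411 at day 6 was 0.833 and 0.509 FPKM with GSK032, 0.338 and 0.521 FPKM with DAC and 1.12 and 0.82 FPKM in DMSO, and its fold changes of -0.33 and -0.66 were not called. In THP1 MSR1 rose along the DAC dose series by 1.12 ± 0.18, a call lost without 3.2 nM DAC library 2 (0.98).

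In NOMO1 the C-type lectin receptors also rose. CLEC7A, or dectin-1, which binds fungal beta-glucans (chr12:10116777-10130258, - strand), was 17.1 and 15.5 FPKM with GSK032, 32.7 and 43.3 FPKM with DAC and 5.14 and 6.89 FPKM in DMSO at day 6 in NOMO1. All treated libraries were above DMSO, and the log2 fold changes of 1.38 ± 0.16 with GSK032 (limma adjusted p = 7.1e-08) and 2.56 ± 0.16 with DAC (adjusted p = 2.34e-14) were called. In THP1 it was 2.21 and 2.77 FPKM with GSK032, 1.25 and 1.1 FPKM with DAC and 0.643 and 1.11 FPKM in DMSO. The GSK032 fold change there, 1.13 ± 0.22, lost its call without DMSO library 1 (0.88) or GSK032 library 2 (0.99). At day 4 CLEC7A in THP1 was 2.47 and 4.57 FPKM with 2000 nM DAC and 3.19 and 3.14 FPKM with 10000 nM DAC, against 0.629 and 0.92 FPKM in DMSO. Both groups lay above DMSO, and the fold changes of 1.61 ± 0.22 (adjusted p = 5.83e-07) and 1.53 ± 0.22 (adjusted p = 1.18e-06) kept their calls under each alternative and each omission of 1 library, where 9.92% and 11.1% of genes were called higher. In THP1 only DMSO library 2 of day 6 reached 1 FPKM of CLEC7A, so the filter kept it there through treated libraries. The adjusted p and calls for CLEC7A in THP1 are therefore a description and not a test. GSK477 at 10000 nM and day 4 gave 12.3 and 12.1 FPKM of CLEC7A in NOMO1 against 5.48 and 5.09 FPKM in DMSO, a log2 fold change of 1.13 ± 0.16 (adjusted p = 1.31e-04), where 0.173% of genes were called higher. It was the one member called with GSK477 at day 4 in any line, and the background in MV411 and THP1 was 0.0318% and 0.00861%.

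MRC1, the macrophage mannose receptor (chr10:17809344-17911170, + strand, host of the microRNA gene MIR511), was 0.482 and 0.447 FPKM with GSK032, 2.96 and 3.28 FPKM with DAC and 0.0738 and 0.0507 FPKM in DMSO at day 6 in NOMO1. The 3 groups did not overlap. MRC1 was kept by the filter in NOMO1 through DAC libraries alone, so its log2 fold change with DAC of 2.69 ± 0.09 is given as a value and not as a test. In THP1 it was under the filter, at 0.103 and 0.148 FPKM with GSK032, 0.245 and 0.243 FPKM with DAC and 0.00989 and 0.013 FPKM in DMSO, where 3 fragments make 0.00926 FPKM. In MV411 it did not pass 0.0272 FPKM in any library.

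Counted together at day 6, GSK032 raised 4 of 7 tested members in MV411 (STAB1, CD36, MARCO and CD68), 4 of 8 in THP1 (STAB1, CD163, CD36 and CLEC7A) and 3 of 9 in NOMO1 (STAB1, CD36 and CLEC7A), where 8.22%, 3.29% and 4.25% of all genes were called higher. DAC raised 3 of 7 in MV411 (STAB1, CD36 and CD68), 2 of 8 in THP1 (STAB1 and CD36) and 7 of 9 in NOMO1, all but CD68 and SCARB1, beside 7.03%, 7.26% and 14.9% of all genes. The THP1 count with GSK032 was between 2 and 4 when 1 library was left out, and CD163 and CLEC7A both lost the call without DMSO library 1 or GSK032 library 2. STAB1 in each line, MARCO in MV411 and MRC1 in NOMO1 reached 1 FPKM in no DMSO library and were tested through treated libraries, so these counts are a description. Without those genes GSK032 raised 2 of 5 in MV411, 3 of 7 in THP1 and 2 of 7 in NOMO1, and DAC raised 2 of 5, 1 of 7 and 5 of 7. The THP1 counts still hold CLEC7A, which was called with GSK032. It reached 1 FPKM there in a single DMSO library and so also passed the filter through treated libraries. The median log2 fold change of the tested members was 1.07, 0.75 and 0.78 with GSK032 and 0.09, 0.39 and 2.35 with DAC in MV411, THP1 and NOMO1, where the median of all genes tested was 0 in each. These medians still hold the genes kept through treated libraries, and no median without them is given. The MV411 value with GSK032 is that of MARCO, which was so kept. Of the members not so kept, CD163 was at -0.36, MSR1 at -0.33, SCARB1 at 0.25, CD36 at 2.23 and CD68 at 2.62 there. No member was called lower than DMSO in any comparison, while at day 6 the share of all genes called lower was 4.23%, 0.788% and 0.987% with GSK032 and 3.9%, 3.84% and 9.75% with DAC. GSK032 minus DAC at day 6 in NOMO1 was -1.4 ± 0.2 for CD163, -1.7 ± 0.25 for MARCO and -1.18 ± 0.16 for CLEC7A, all 3 called, and -1.91 ± 0.09 for MRC1, with 11.3% of all genes called lower. Without DAC library 2 the CLEC7A value was -0.98. CD36 and MSR1 missed the size needed, at -0.98 and -0.96, and were called at -1.2 and -1.17 with equal sums and at -1.15 and -1.13 with median-of-ratios scaling. Leaving out 1 of the compared libraries put CD36 between -1.06 and -0.89 and MSR1 between -1.04 and -0.88. At 10000 nM in NOMO1, STAB1 was higher with GSK032 by 1.23 while CD163, CD36 and MARCO were lower, with log2 differences of -1.3, -1.38 and -1.5. The STAB1 difference thus had the opposite sign to that of 3 other members in the same libraries.

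The dose series in NOMO1 showed the same split. With 80, 2000 and 10000 nM GSK032, MARCO was 1.43 and 1.12 FPKM, 1.43 and 1.63 FPKM and 2.27 and 3.9 FPKM at day 4, and with the same doses of DAC it was 2.07 and 2.03 FPKM, 4.58 and 5.71 FPKM and 8.85 and 9.97 FPKM. CD163 was 1.75 and 0.97 FPKM, 1.31 and 1.31 FPKM and 2.12 and 2.19 FPKM with GSK032 and 2.17 and 2.22 FPKM, 4.87 and 3.77 FPKM and 6.02 and 6.06 FPKM with DAC. The libraries of the 2 compounds did not overlap at any of these doses for either gene. Along the DAC series 7 of 9 members rose in NOMO1, by log2 values between 1.21 for MSR1 and 3.88 for STAB1, and along the GSK032 series STAB1, CD36 (1.4) and CLEC7A (1.38) did. The filter kept STAB1 and MRC1 through treated libraries alone, so their part in these counts is a description. The MRC1 value along the DAC series, 1.5, was 0.97 with a pseudocount of 1, under the size needed for a call.

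**Figure D4:**
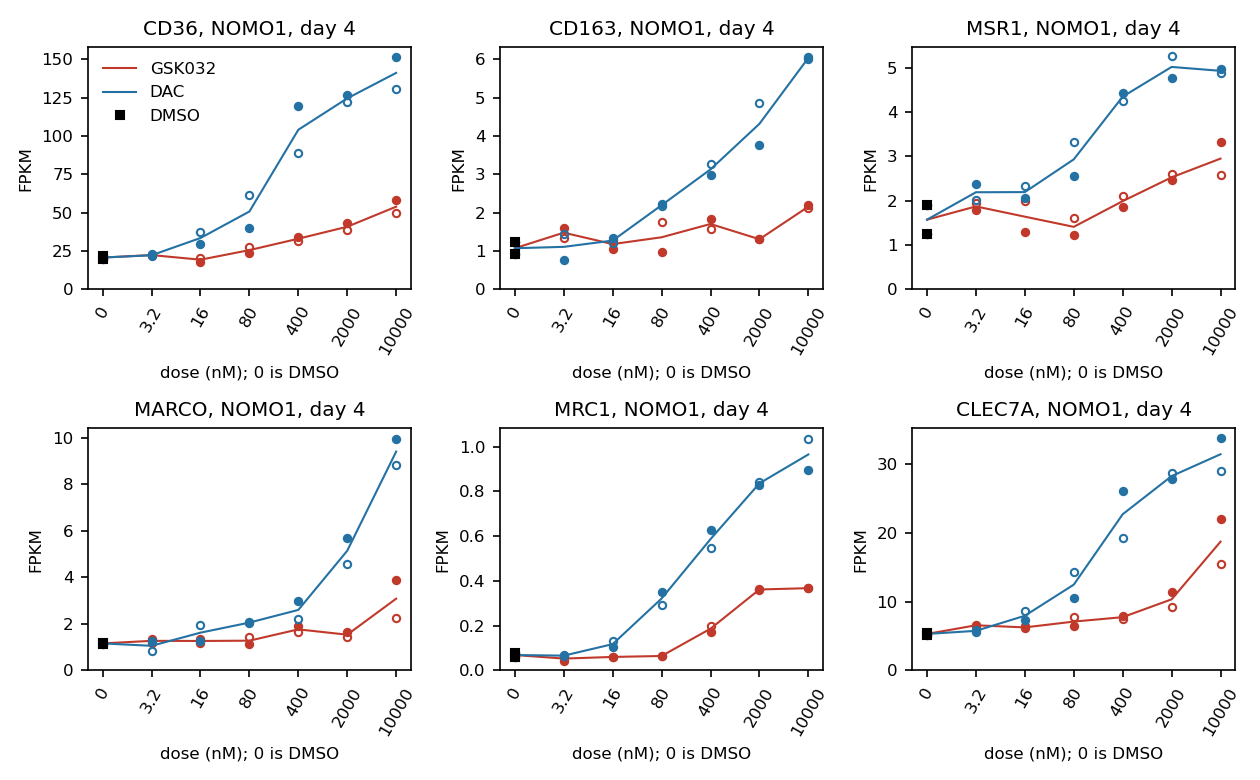
CD36, CD163, MSR1, MARCO, MRC1 and CLEC7A in NOMO1 in FPKM at day 4 against dose in nM, with DMSO at 0, for GSK032 (red), DAC (blue) and DMSO (black squares). Open and filled circles are libraries 1 and 2 and lines join the group means. From 80 nM on, the mean with DAC is above the mean with GSK032 for all 6 genes.

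Cell type markers also differed between the groups in the same NOMO1 libraries. At day 6 the sum of 3 T cell markers was 27.7 to 31.3 FPKM with GSK032, 91.9 to 109 FPKM with DAC and 10.4 to 11.9 FPKM in DMSO, nearly all of it CD3D, with CD3E and CD2 under 1 FPKM in each group. The myeloid and monocytic sum was 7220 to 7516 FPKM with GSK032, 2242 to 2362 FPKM with DAC and 5940 to 6165 FPKM in DMSO, of which LYZ was 5674 to 5798 FPKM, 1846 to 1905 FPKM and 3877 to 3939 FPKM and MPO 1079 to 1477 FPKM, 36.9 to 37.0 FPKM and 1790.1 to 1968 FPKM. CD14 was 24.7 to 29.7 FPKM with GSK032, 104 to 152 FPKM with DAC and 1.92 to 3.23 FPKM in DMSO. Sums for other cell types were also higher with DAC than in DMSO. The erythroid and platelet sum, nearly all ITGA2B, was 98.9 to 166 FPKM against 1.91 to 2.2 FPKM. Fibroblast markers summed to 16.9 to 18.7 FPKM against 0.852 to 1.25 FPKM, and epithelial markers to 33.6 to 41.4 FPKM against 8.03 to 9.07 FPKM. Their part in the results on the receptors was not tested.

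**Figure D5:**
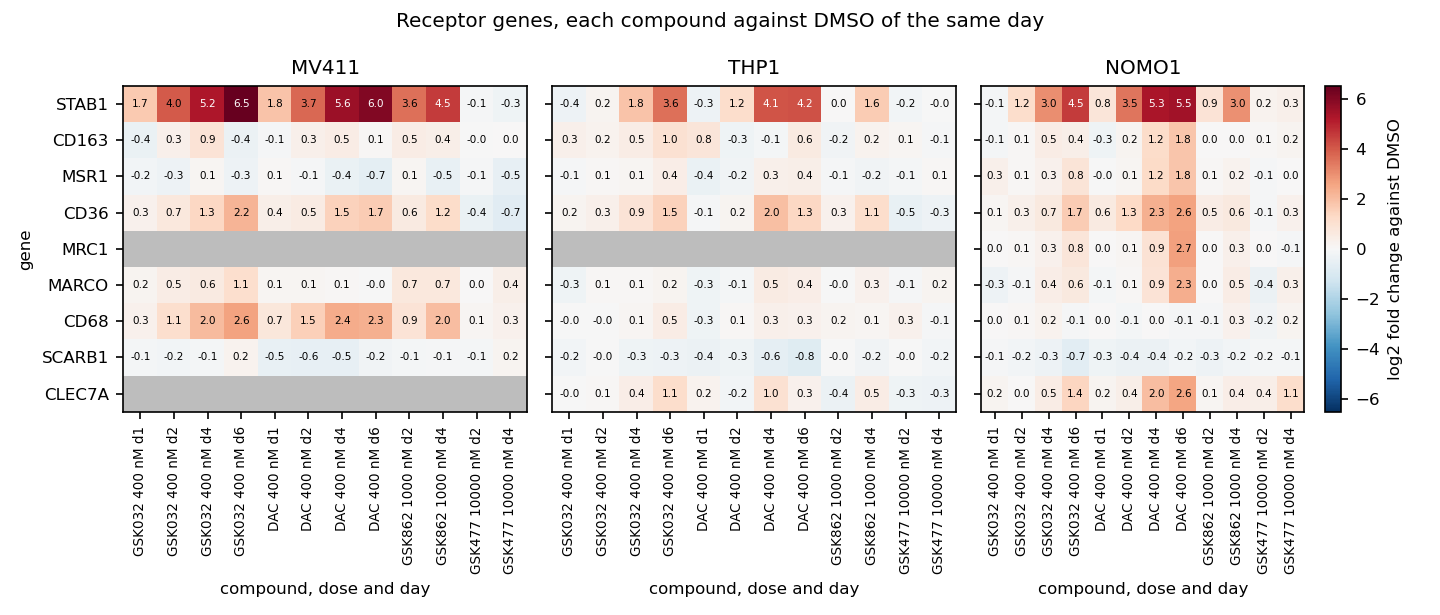
Log2 fold change against DMSO of the same day (colour scale and printed numbers, log2 units) for the 9 members in rows and the treatments of each line in columns, with grey rows for members under the filter on low values. STAB1 has the highest values in each line, CD68 is raised in MV411, and CD163, MSR1, MARCO, MRC1 and CLEC7A are raised in the day 6 DAC column of NOMO1.

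Across the 26 group means of a line, which share a line and its normalization, CD36 was the member with the highest correlation with STAB1 in THP1 and NOMO1. Pearson's r of log2(FPKM + 0.5) between them was 0.94 in MV411, 0.95 in THP1 and 0.89 in NOMO1. For CD68 and STAB1 r was 0.97 in MV411, 0.28 in THP1 and -0.17 in NOMO1, and SCARB1 ran against it in all lines (-0.66, -0.77 and -0.64). CD163 and MARCO ran together in NOMO1 (r = 0.96). Outside the members, the 6 genes whose lowest r with STAB1 over the 3 lines was highest, among 16540 genes tested in all lines, were ST8SIA6-AS1 (0.96), CYP2T1P (0.95), PIWIL2 (0.95), MAEL (0.95), ISYNA1 (0.95) and RHOXF2 (0.94). PIWIL2 and MAEL act in the piRNA pathway of germ cells, RHOXF2 is a homeobox gene of the testis, and ISYNA1 makes inositol phosphate. These correlations describe the libraries and carry no test.

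Of the 3 nearest protein-coding genes on each side of STAB1, SEMA3G and TNNC1 were called higher in MV411 at day 6, by log2 values of 1.18 and 2.17 with GSK032 and 1.41 and 1.46 with DAC. TNNC1, cardiac troponin C, was also called with DAC in NOMO1 (1.48). NISCH, which ends 2267 bases before STAB1, was higher by less than the size needed for a call in every line at day 6, 0.87 with GSK032 and 0.58 with DAC in MV411. NT5DC2, which overlaps the end of STAB1, had log2 fold changes of -0.77 with GSK032 and -1.09 with DAC in MV411, the DAC value being called lower, and of 0.36 and 0.72 in NOMO1. SMIM4 and PBRM1 on the far side of NT5DC2 were not called in any line at day 6.

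Further genes of macrophage uptake were counted at day 6 in 6 lists of 91 genes in all, beside the shares of all genes given above for that day. List genes scarce in DMSO, such as SCARF1 and C1QB in NOMO1 below, could pass the filter through treated libraries alone. No count without such genes is given for the lists, so their counts are a description. Of the other scavenger receptors, 3 of 9 tested were higher with GSK032 and 2 with DAC in MV411, 2 and 3 of 11 in THP1 (with CD163L1 lower with DAC), and 2 and 7 of 9 in NOMO1. SCARF1, a class F receptor for modified lipoproteins, was called in all 3 lines with both compounds, with log2 fold changes of 1.92, 1.77 and 3.19 with GSK032 and 2.17, 2.0 and 3.76 with DAC (MV411, THP1, NOMO1). Its NOMO1 levels were 10.1 ± 3.1 FPKM with DAC and 0.27 ± 0.135 FPKM in DMSO (SD, n = 2). OLR1, the lectin-like receptor for oxidized lipoprotein, rose in MV411 (1.42 and 1.47), and LRP1, a large endocytic receptor, in NOMO1 (1.36 and 2.76). CXCL16, a membrane chemokine that also binds oxidized lipoprotein, rose with DAC in NOMO1 (2.65). The median log2 fold change of the list was 0.65, 0.55 and 0.49 with GSK032 and 0.61, 0.58 and 1.74 with DAC for MV411, THP1 and NOMO1, where the median of all genes was 0.

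The genes for uptake of dead cells gave 4 of 15 tested higher with GSK032 and 11 of 15 with DAC in NOMO1, with medians of 0.29 and 1.73. In MV411 there were 4 of 13 higher and 2 lower with GSK032 and 6 higher with DAC, and in THP1 5 of 14 with GSK032 and 6 of 14 with DAC. C1QB, a chain of complement C1q, which coats dying cells, was at 30.9 ± 8.26 FPKM with DAC and 0.0844 ± 0.0102 FPKM in DMSO (SD, n = 2) in NOMO1 at day 6. Its log2 fold change there was 2.63 with GSK032 and 5.72 with DAC. C1QA and C1QC rose with it in NOMO1 (4.35 and 3.84 with DAC). TREM2, a lipid-sensing receptor of macrophages and microglia, rose in MV411 by 3.02 with DAC, where it was 42.3 ± 2.52 FPKM with DAC and 4.77 ± 0.592 FPKM in DMSO. GAS6, a bridge between dying cells and the AXL and MERTK receptors, rose with GSK032 in MV411 (2.17) and THP1 (2.02), and AXL rose in THP1 (1.8 with GSK032 and 2.05 with DAC). The integrin subunit ITGB5 fell in MV411 with GSK032 (-2.99).

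Of the lipid handling genes, 2 of 14 rose with GSK032 and 9 of 14 with DAC in NOMO1, with medians of 0.24 and 1.08. In MV411 the medians were -0.23 and 0.07 and in THP1 0.19 and 0.10, and the MV411 DAC value became -0.09 when libraries were scaled to equal sums. The apolipoprotein APOE was at 106 ± 12.2 FPKM with DAC and 5.15 ± 0.79 FPKM in DMSO in NOMO1 and at 102 ± 5.04 FPKM with DAC and 23.1 ± 1.07 FPKM in DMSO in THP1 (SD, n = 2). The cholesterol exporter ABCA1 rose in NOMO1 with GSK032 (1.2) and fell in MV411 with GSK032 (-1.91) and DAC (-1.84), where 2 of 11 genes of the list rose and 4 fell with each compound. In THP1 2 of 14 rose with each compound, and 1 fell with GSK032 and 2 with DAC. The lysosomal genes gave 1 of 13 higher with GSK032 and 5 of 13 higher and 1 lower with DAC in NOMO1 (medians 0.33 and 0.92), and 2 of 12 higher and 1 lower with each compound in MV411 and in THP1. GPNMB, a lysosomal membrane glycoprotein of lipid-laden macrophages, rose in THP1 (2.67 and 2.94) and NOMO1 (1.54 and 3.65) and fell in MV411 (-1.53 and -1.47), each pair GSK032 then DAC.

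Among the C-type lectins, NOMO1 had 2 of 13 higher and 1 lower with GSK032 and 5 higher and 2 lower with DAC (medians 0.55 and 0.47). MV411 had 4 of 8 higher and 2 lower with GSK032 and 1 higher and 2 lower with DAC, and THP1 had 1 and 2 of 7 higher with GSK032 and DAC. CLEC10A, a galactose-binding lectin of macrophages and dendritic cells, rose in NOMO1 with DAC (3.67) and fell in MV411 (-1.96 with GSK032 and -1.23 with DAC). CLEC2D fell in MV411 (-2.89 with GSK032 and -2.72 with DAC). Of the macrophage regulators, 2 of 15 rose with GSK032 in NOMO1, 7 rose and 2 fell there with DAC (medians 0.08 and 0.93), and in MV411 2 of 12 rose and 1 fell with each compound. In THP1 3 of 14 rose with GSK032, and 4 rose and 1 fell with DAC. MAF, a transcription factor of mature macrophages, rose in THP1 (2.23 with GSK032 and 2.59 with DAC), and CSF1R, the receptor for macrophage growth factor, rose in NOMO1 (1.34 and 2.39). IRF8, a regulator of monocyte fate, fell in THP1 with DAC (-1.34).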

How the data were processed

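RNA from 156 bulk libraries was extracted with a column kit and sequenced as paired-end reads, per the labels' protocols. Per the submitters' processing notes, hg38, Salmon 0.12.0 and DESeq2 were used; how each entered the tables and whether strand was used is not given in the sources used here. The deposited values are FPKM per Ensembl gene, 1 table per line. The authors also deposited log2 fold changes for their own comparisons, printed only where named. Symbols and coordinates came from GENCODE 29.

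limma 3.58.1 (R 4.3.3) was fitted per line to log2(FPKM + 0.5) with 1 mean per group and a trended moderated variance, on the genes of which 2 or more libraries reached 1 FPKM (MV411 22007 genes, THP1 23226 and NOMO1 20763), and tested on simulated data first. A call needed a Benjamini-Hochberg adjusted p under 0.05 and a log2 fold change of at least 1. Decitabine at 400 nM and day 4, by which STAB1 was picked, got no test. The members, lists and comparisons were chosen with earlier results of these data known. From each list up to 3 called genes per comparison could be named, largest change first, with a mean of at least 1 FPKM in the higher group. The fit has no replicate term. Alternatives were other pseudocounts, no filter, 2 other scalings, a replicate term and leaving out each library in turn. Median-of-ratios scaling and the comparison of 10000 with 2000 nM were added after the data were seen.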

Additional observations from a re-analysis of the deposited data

Results flagged for a closer look

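The effect of 400 nM on the receptors differed between day 6 and day 1, tested as the day 6 effect less the day 1 effect with limma (Benjamini-Hochberg adjusted). In MV411 the log2 difference was 4.77 for STAB1, 1.95 for CD36 and 2.32 for CD68 with GSK032, and 4.17, 1.26 and 1.61 for the same genes with DAC. In THP1 it was 3.92 for STAB1, 1.31 for CD36 and 1.13 for CLEC7A with GSK032, and 4.47 for STAB1 and 1.41 for CD36 with DAC. The CLEC7A value in THP1 lost its call with a pseudocount of 1 and when single libraries were left out. It is a description, as CLEC7A reached 1 FPKM in a single DMSO library of THP1. In NOMO1 it was 4.65 for STAB1, 1.53 for CD36 and 1.21 for CLEC7A with GSK032. With DAC in NOMO1 it was 4.66 for STAB1, 2.06 for CD163, 1.79 for MSR1, 2.05 for CD36, 2.47 for MARCO and 2.36 for CLEC7A. MRC1 had 2.66 there, given as a value and not as a test. The STAB1 values of all lines are likewise a description, as the filter kept both genes through treated libraries alone.

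At day 6 some members had both treated libraries on one side of both DMSO libraries in one line and on the other side in another. With 2 libraries per group this can arise from the spread between libraries. The share of all genes that do so was not counted, so the values are a description. Only CD163 in THP1 and MSR1 in NOMO1 were called. CD163 with GSK032 changed by 1.01 on the log2 scale in THP1 and 0.40 in NOMO1 but by -0.36 in MV411. SCARB1 with GSK032 changed by 0.25 in MV411, -0.30 in THP1 and -0.68 in NOMO1. MSR1 with DAC changed by 0.36 in THP1 and 1.78 in NOMO1 but by -0.66 in MV411. In THP1 the MSR1 libraries barely parted, at 2.233 and 2.040 FPKM with DAC and 2.030 and 1.164 FPKM in DMSO. These differences between lines were not tested, because the tables were normalized apart.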

How the results depend on the processing

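Each group has 2 libraries, the 3 tables were normalized apart and low genes are limited by the pseudocount. Of 288 member values, 274 kept their side of the threshold with a pseudocount of 0.1, 277 with 1, 288 without the filter, 277 with equal sums and 281 with median-of-ratios scaling, and no called value reversed. The fit with a replicate block left 274 of 274 values on the same side. GSK862 and GSK477 at day 4 in MV411, whose 2 columns carry the same number, were left out of it. Deviations of same-numbered libraries from their group means had a median correlation of 0.0802, 0.081 and 0.0881 in MV411, THP1 and NOMO1. The correlation was above 0.1 for 101 of 276, 93 of 325 and 112 of 325 pairs of groups. It ran from -0.204 to 0.417, from -0.0122 to 0.22 and from -0.115 to 0.233. The medians were positive, and whether same-numbered libraries share a difference was not tested. The main fit did not take the numbers as a pairing. Scaling moved the median of all genes by up to -0.36 on the log2 scale (10000 nM DAC in MV411, equal sums), where 2365 genes were called higher and 2758 lower as deposited, 1332 and 5231 with equal sums, and 4149 and 1290 with median-of-ratios scaling. For DAC at day 6 in NOMO1 the split was 3089 higher and 2025 lower as deposited, 3999 and 1123 with equal sums and 3775 and 1341 with median-of-ratios scaling.

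Counts of members called changed as follows, and the cause was not tested. GSK032 minus DAC in MV411 went to 0 with a pseudocount of 1 at day 6, and at 10000 nM to 0 with a pseudocount of 1, 2 with equal sums and 0 with median-of-ratios scaling. With GSK032 in THP1 at day 6 the count was 2 with a pseudocount of 1, and GSK032 minus DAC there was 1 with 0.1. In NOMO1 the GSK032 dose series gave 5 with a pseudocount of 0.1, and GSK032 minus DAC at day 6 gave 7 with either scaling.

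Leaving out 1 library at a time, the GSK032 counts in MV411 ran from 3 to 4 at day 6, at 10000 nM, along dose and for day 6 less day 1. The DAC counts there were 3, 2 to 3, 3 to 4 and 3. In THP1 they were 2 to 4, 2, 2 and 2 to 3 with GSK032 and 2, 3, 3 to 4 and 2 to 3 with DAC, and in NOMO1 3, 3 to 4, 3 to 4 and 3 to 4 with GSK032 and 7 throughout with DAC. GSK862 gave 3 in MV411, 2 in THP1 and 1 in NOMO1, and GSK477 gave 0, 0 and 1. GSK032 minus DAC ran from 0 to 1 in MV411 at day 6 and at 10000 nM, was 0 in THP1, and in NOMO1 ran from 3 to 7 at day 6 and was 4 at 10000 nM. STAB1 at day 6 stayed within 6.35 to 6.55 with GSK032 and 5.94 to 6.09 with DAC in MV411, 3.37 to 3.77 and 3.96 to 4.36 in THP1, and 4.42 to 4.63 and 5.26 to 5.66 in NOMO1.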
